A study of Mus musculus with 2 samples.

Results

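The Mir30 family comprises the 6 mouse loci Mir30a, Mir30b, Mir30c-1, Mir30c-2, Mir30d and Mir30e, which were found by symbol among the 1973 microRNA loci of the deposited tables. The loci were chosen by name, though with earlier results of these data known. They were measured in small RNA libraries from hindbrain, the region of the brain that gives rise to the cerebellum, pons and medulla. The series holds 1 group of 2 replicate libraries, at embryonic day 14.5 in strain B6NCrl, with RNA below 30 nucleotides. Replicate 2 was collected on 30 July 2014 and replicate 1 on 24 July 2014. No transgene, mutation or treatment is named in the labels, and no conditions could be compared.

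One label calls a sample 1 hindbrain, while another describes it as pooled from embryos of both sexes, and the donor label is the same for both samples. The labels do not say whether the libraries came from separate animals. The SD therefore measures only the spread between these samples, which may be technical, and the p-values concern these samples alone. A difference between the samples coincides with the day of collection.

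A microRNA is cut from a hairpin in a longer transcript, and 1 arm, the 5p or the 3p product, usually becomes the guide that binds messenger RNAs through its seed near the 5′ end. The loci of a family are grouped by a shared seed, so their guides can bind overlapping sets of targets. In other settings miR-30 guides have been shown to repress the Notch ligand Dll4 in endothelial cells and the neurotrophin Bdnf in neurons. In tables of this kind 1 row is a hairpin, so counts of the 5p and the 3p product are joined.

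RefSeq sequences (GRCm38.p6) were matched by symbol for 4 of the 6 loci, Mir30a, Mir30c-1, Mir30c-2 and Mir30e, and not for Mir30b and Mir30d. The 5p products are shown first, because they carry the family's seed and decide which reads can be told apart. Capitals mark the seed, bases 2 to 8.
miR-30a-5p: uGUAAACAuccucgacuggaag
miR-30e-5p: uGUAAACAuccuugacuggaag
miR-30c-5p: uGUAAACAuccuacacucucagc
miR-384-5p: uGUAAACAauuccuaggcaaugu

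The seed GUAAACA stood at 5 loci of the RefSeq table, the 4 Mir30 loci with a sequence and Mir384, a locus on chromosome X outside the family by name. Over the first 12 bases the 3 miR-30 sequences were identical, while miR-384-5p shared only the first 8 with each of them. The 5p products of Mir30a and Mir30e, both 22 bases long, differed at 1 position (C13U, miR-30a first, counted from the 5′ end). The 23 bases of miR-30c-5p were the same at Mir30c-1 and Mir30c-2.

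The 3p products of the 4 loci with a sequence fell into a pair of seeds, and again capitals mark bases 2 to 8.
miR-30a-3p: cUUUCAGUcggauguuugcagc
miR-30e-3p: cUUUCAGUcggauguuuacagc
miR-30c-1-3p: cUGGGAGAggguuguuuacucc
miR-30c-2-3p: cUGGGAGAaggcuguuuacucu

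Mir30a and Mir30e shared a 3p seed that no other locus of the RefSeq table held, though Mir30b and Mir30d were not in it. The 3p products of Mir30a and Mir30e differed at 1 position (G18A, miR-30a first). The 3p products of Mir30c-1 and Mir30c-2 shared a different seed and differed at 3 of 22 positions (G9A, U12C and C22U, miR-30c-1 first). That seed stood at 3 loci of the RefSeq table, these Mir30c loci included.

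The hairpins of the Mir30c loci are shown because their overlap bears on how their reads were counted. Capitals mark the longest run of bases that both contain.
Mir30c-1: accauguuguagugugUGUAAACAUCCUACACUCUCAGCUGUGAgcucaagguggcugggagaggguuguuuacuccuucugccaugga
Mir30c-2: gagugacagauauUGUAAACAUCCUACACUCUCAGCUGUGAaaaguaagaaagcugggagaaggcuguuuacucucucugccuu

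The shared run was 28 bases long. It began at the first base of miR-30c-5p and went on for 5 bases past its end. A read of 28 bases or fewer that starts at that base has the same letters at both loci, and the libraries held RNA below 30 nucleotides. Reads that mapped to several positions stand in a row of their own in the deposited tables and were not assigned to any locus. The counts of Mir30c-1 and Mir30c-2 therefore leave out such reads and are uncertain as levels of miR-30c. Among 1005 hairpins of the RefSeq table, each of the Mir30c hairpins shared a run of 20 bases with 1 other, its partner. Mir30a and Mir30e shared such a run with 0 hairpins, and the longest run common to the hairpins of Mir30a and Mir30e was 18 bases. Their 22-base products can be separated by an exact match, but a read with an error at the differing base cannot be assigned with certainty.

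The 6 loci lie in 3 genomic pairs (coordinates of GRCm38, with neighbouring genes from GENCODE release M21). On chromosome 4, on the minus strand, Mir30e (120772606 to 120772697, ENSMUSG00000065409.1) and Mir30c-1 (120769534 to 120769622, ENSMUSG00000065490.1) both lie within introns of Nfyc, which encodes a subunit of the CCAAT-binding factor NF-Y, with 2983 bases between them. On chromosome 1, on the plus strand, Mir30a (23272269 to 23272339, ENSMUSG00000065405.2) lies outside annotated genes. Mir30c-2 (23291701 to 23291784, ENSMUSG00000065567.1) lies 19361 bases farther on, in an exon of the long noncoding RNA Gm27028. On chromosome 15, on the minus strand, Mir30d (68341208 to 68341289, ENSMUSG00000065437.1) lies in an exon of the long noncoding RNA Gm20732. It is separated by 3697 bases from Mir30b (68337415 to 68337510, ENSMUSG00000065476.2), of which 16 bases overlap an exon of the processed transcript Gm26621.

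The counts assigned to microRNA loci came to 6667238 in replicate 2 against 5826676 in replicate 1, and multimapping reads were 34.3% and 33.9% of all reads of these libraries, replicate 2 first. All 6 hindbrain and neural markers examined had at least 10 counts in each library, with summed levels of 155752 CPM in replicate 2 and 192886 CPM in replicate 1. The sum was set mainly by Mir10a and Mir10b, which were lower in level in replicate 2, while Mir137, Mir128-1 and Mir153 were higher in level there (10645 CPM against 9697, 1900.2 against 1661, and 2553 against 1965). Mir9-3 was lower in replicate 2, with 505.5 CPM against 527.1 CPM in replicate 1. The list left out the brain loci Mir124a-1 and Mir124a-2, which had low mean levels of 7.75 and 3.13 CPM. CPM gives a locus's reads relative to 1000000 reads assigned to loci. Of markers of other cell types, the endothelial Mir126a had 36687 CPM in replicate 2, against 31783 CPM in replicate 1, and the smooth muscle Mir143 had 6797 and 6473 CPM. The red cell list of 2 loci summed to 374 and 261 CPM, the epithelial list of 3 to 710.0 and 709.7 CPM, the myeloid Mir223 had 208 and 194 CPM and the liver locus Mir122 15.8 and 13.7 CPM, replicate 2 first in each case. Of the 4 muscle loci, Mir206 was detected, with 16.2 CPM in replicate 2 and 14.9 CPM in replicate 1, Mir208a had 4 and 2 counts, and Mir1a-1 and Mir133a-1 had 0 counts in both libraries. Multimapping reads were assigned to no locus, markers included. Low or 0 counts at a marker therefore do not show that its microRNA was absent. The tissue was whole hindbrain, so more cells that make a microRNA and more RNA per cell cannot be told apart, and which cells the Mir30 counts came from was not tested.

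All 6 Mir30 loci were detected, that is, they had 10 or more counts in both libraries. The family held 3.82% of the microRNA counts in replicate 2 (3.802 to 3.832, the 95% interval by Clopper-Pearson) and 4.04% in replicate 1 (4.021 to 4.053), or 39268 ± 1553 CPM (SD, n = 2). Intervals and floors cover counting error of reads only, and the reads carry no molecular identifiers. Nearly all of this came from Mir30e, Mir30a and Mir30d, with 3.79% and 4.01% of the counts between them. Mir30b, Mir30c-1 and Mir30c-2 together held 0.0271% in replicate 2 and 0.0261% in replicate 1. The family's total and its division among loci leave out multimapping reads, so they do not measure the share of miR-30c. Each read stands for 1 small RNA of similar length, so CPM was not divided by length. The capture bias of small RNA libraries between sequences was not measured.

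Mir30e, in an Nfyc intron, was the most abundant member. It had 147322 counts in replicate 2 and 137310 in replicate 1, which gave 22096 CPM (21985 to 22208) and 23566 CPM (23443 to 23689). It stood at rank 11 of all loci in each library. Mir30e alone made up 57.9% of the family's counts in replicate 2 and 58.4% in replicate 1.

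Mir30a had 61305 counts in replicate 2 and 57780 in replicate 1, or 9195 CPM (9123 to 9268) and 9916 CPM (9836 to 9997). Its rank was 19 in replicate 2 and 17 in replicate 1. Mir30a held 24.1% and 24.6% of the family.

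Mir30d had 44058 counts in replicate 2 and 38590 in replicate 1, or 6608 CPM (6547 to 6670) and 6623 CPM (6557 to 6689). It was the member whose levels lay closest together in the libraries relative to its mean, at rank 28 in replicate 2 and 27 in replicate 1. Mir30d held 17.3% and 16.4% of the family.

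Mir30b, the chromosome 15 partner of Mir30d, had 1131 counts in replicate 2 and 896 in replicate 1, or 170 CPM (159.9 to 179.8) and 154 CPM (143.9 to 164.2). Mir30c-1, which shares the Nfyc gene with Mir30e, had 372 counts in replicate 2 and 374 in replicate 1, or 55.8 CPM (50.3 to 61.8) and 64.2 CPM (57.9 to 71.03). Mir30c-2, the chromosome 1 partner of Mir30a, had 301 counts in replicate 2 and 250 in replicate 1, or 45.1 CPM (40.2 to 50.5) and 42.9 CPM (37.8 to 48.6). These 3 loci ranked between 187 and 252 in the libraries, far below the other 3.

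**Figure D1:**
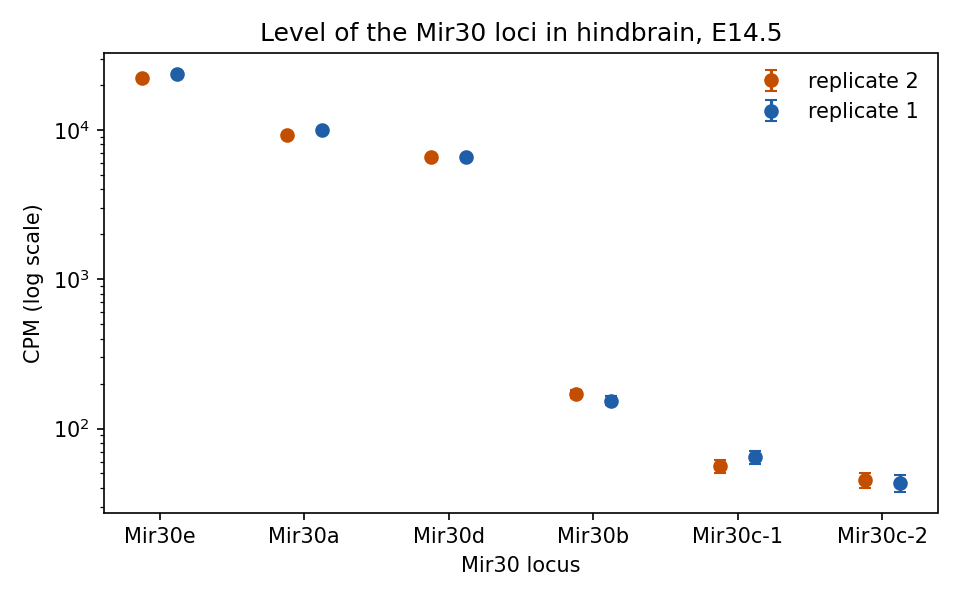
Level of each Mir30 locus in CPM on a log axis, in replicate 2 (orange) and replicate 1 (blue), with bars for the 95% Clopper-Pearson interval of counting error. Mir30e, Mir30a and Mir30d lie between 6608 and 23566 CPM and Mir30b, Mir30c-1 and Mir30c-2 between 42.9 and 170 CPM.

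The order of the levels was Mir30e, Mir30a, Mir30d, Mir30b, Mir30c-1 and Mir30c-2 in both libraries. No neighbours in this order had ranges that overlapped over the 2 libraries. Mir30e was 2.40 times the level of Mir30a in replicate 2 and 2.38 times in replicate 1, and Mir30a was 1.39 and 1.5 times that of Mir30d. The widest step was between Mir30d and Mir30b, 39.0 times in replicate 2 and 43.1 times in replicate 1. Mir30b was 3.04 and 2.40 times the level of Mir30c-1. At the low end Mir30c-1 was 1.24 times Mir30c-2 in replicate 2 (counting interval 1.06 to 1.44) and 1.5 times in replicate 1 (1.27 to 1.76). With 2 libraries no test of these differences between loci across samples was made.

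**Figure D2:**
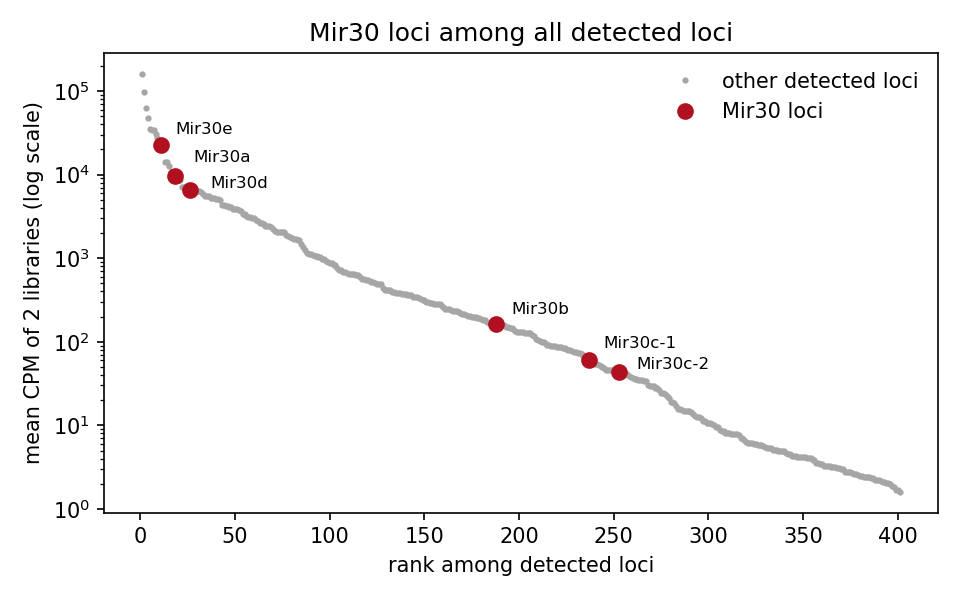
Mean CPM of both libraries on a log axis against rank for the 401 detected loci, with the Mir30 loci in red. Mir30e, Mir30a and Mir30d stand at ranks 11, 18 and 26, and Mir30b, Mir30c-1 and Mir30c-2 at ranks 188, 237 and 253.

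Each genomic pair held 1 abundant and 1 scarce locus. Mir30e had 396 times the counts of Mir30c-1 in replicate 2 (counting interval 358 to 440) and 367 times in replicate 1 (332 to 407). Mir30a had 204 times the counts of Mir30c-2 in replicate 2 (182 to 229) and 231 times in replicate 1 (204 to 263). Mir30d had 39.0 times those of Mir30b in replicate 2 (36.7 to 41.4) and 43.1 times in replicate 1 (40.3 to 46.1). For the first 2 of these pairs the scarce locus is a Mir30c locus, whose reads of up to 28 bases could not be assigned where they start at the first base of miR-30c-5p. How much of the gap in level this accounts for was not tested.

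The chromosome 4 pair held 58.0% of the family's counts in replicate 2 (57.8 to 58.2) and 58.5% in replicate 1 (58.3 to 58.7). For the chromosome 1 pair the shares were 24.2% (24.0 to 24.4) and 24.7% (24.5 to 24.8). The chromosome 15 pair had 17.8% (17.6 to 17.9) and 16.8% (16.6 to 16.9). The shares moved by at most 1 percentage point between the libraries, and the chromosome 15 pair was the one with the higher share in replicate 2. Reads of miR-30c-5p that mapped to both Mir30c loci are missing from the chromosome 4 and chromosome 1 pairs. The intervals do not cover this loss.

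No reads lay on the opposite strand of any Mir30 locus, with 0 counts in both libraries. The annotation places another microRNA, Mir30f, on the plus strand at the position of Mir30e, and its mature sequence is shown because it is read from the strand opposite the 3p arm of Mir30e, with capitals at bases 2 to 8.
miR-30f: gUAAACAUccgacugaaagcuc

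Mir30f had 0 rows of its own in the tables, so its reads would stand in the opposite-strand column of Mir30e. The 0 counts there allow a level of at most 0.450 CPM for replicate 2 and 0.515 CPM for replicate 1, by a floor of 3 counts. By name miR-30f belongs to the family, but its bases 2 to 8 were not the seed of the members above. The letters GUAAACA do occur in miR-30f, starting at its first base.

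Mir384, the remaining locus with the seed GUAAACA in the RefSeq table, had 2923 counts in replicate 2 and 2345 in replicate 1. Its level of 438 CPM (422.7 to 454.6) in replicate 2 and 402 CPM (386.3 to 419.1) in replicate 1 lay between those of Mir30d and Mir30b.

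The log2 ratio of replicate 2 over replicate 1, after TMM scaling of the libraries, was between -0.24 and 0.10 for the 6 loci. The test was an exact binomial test, two-sided, which allows for counting error only, with Benjamini-Hochberg adjustment over 498 loci. Of all loci tested, 32.5% were called at an adjusted p under 0.05, 17.5% as higher in replicate 2 and 15.1% as lower, or 87 and 75 loci. Without TMM, by library totals, this split was 114 and 59. Of the 6 Mir30 loci 3 were called, 0 as higher and 3 as lower in replicate 2, and 3 did not pass. The 3 called members were the deepest, and depth moves the share of calls. Of the 78 loci that reached 10000 counts in both libraries, a limit chosen after the values were seen, 82.1% were called. The median log2 ratio was -0.09 for the Mir30 loci and 0.01 for all loci tested.

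Mir30e was lower in replicate 2, with a log2 ratio of -0.14 (exact interval -0.15 to -0.12, exact binomial test, adjusted p = 1.12e-136). Mir30a was also lower, by a log2 ratio of -0.15 (-0.17 to -0.14, exact binomial test, adjusted p = 5.27e-72). Mir30d was lower by a smaller amount, a log2 ratio of -0.05 (-0.07 to -0.03, exact binomial test, adjusted p = 2.82e-05). By library totals, without TMM, the log2 ratio of Mir30d was -0.0032 and its call was lost (adjusted p = 0.902, exact binomial test). The differences were small, with ratios of 0.910, 0.900 and 0.969 for Mir30e, Mir30a and Mir30d. For the 78 deep loci the median absolute log2 ratio was 0.12.

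Among the scarce members, Mir30c-1 had a log2 ratio of -0.24 (-0.46 to -0.03, exact binomial test, adjusted p = 0.0612). It passed with DESeq2 size factors (adjusted p = 0.0421), with upper quartile scaling (0.0424) and when tested among loci of 100 or more summed counts (0.0409). Mir30b had 0.10 (-0.03 to 0.23, exact binomial test, adjusted p = 0.279) and Mir30c-2 had 0.03 (-0.22 to 0.28, exact binomial test, adjusted p = 0.959). Mir384 had 0.08 (0.00 to 0.16, exact binomial test, adjusted p = 0.118). The intervals of Mir30b and Mir30c-2 hold values on both sides of 0, so no direction was read for them, and whether the members' ratios differed from each other was not tested.

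With the spread between the libraries allowed for, by edgeR's exact test with a common dispersion (a coefficient of variation of 10.8% between these samples), 0 of the 6 Mir30 loci were called. None of them had an unadjusted p under 0.05, while 1.41% of all loci tested were called in this way, 0.803% as higher in replicate 2 and 0.602% as lower. The lowest unadjusted p of a member was 0.320, for Mir30c-1. The dispersion comes from the libraries being compared, so true differences between them widen it, and a lack of calls by this test does not show that levels were equal.

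**Figure D3:**
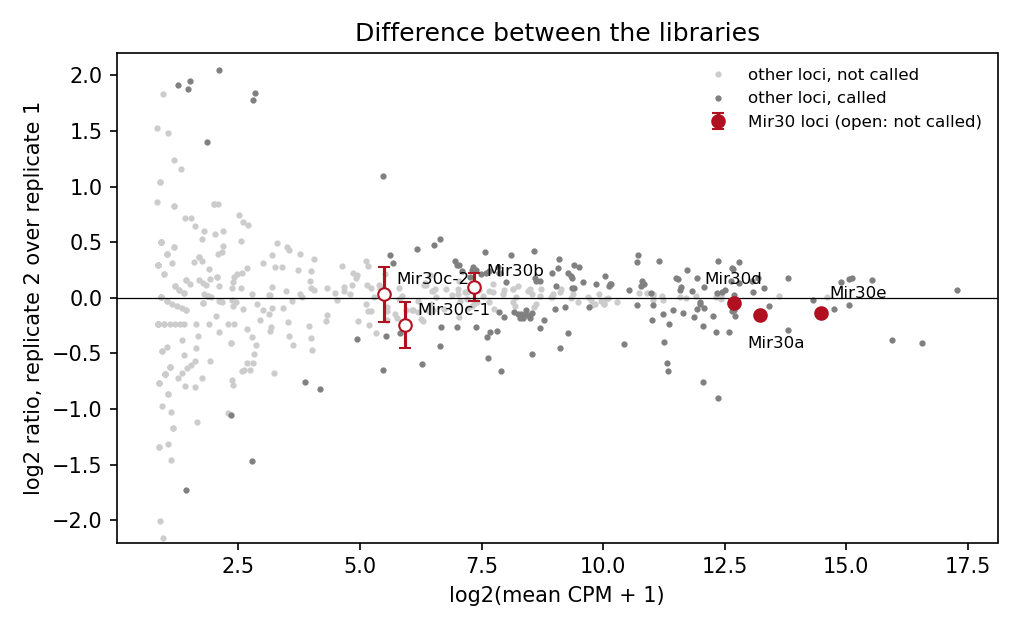
Log2 ratio of replicate 2 over replicate 1 after TMM scaling against log2(mean CPM + 1) for 498 loci, with called loci dark grey, other loci light grey and the Mir30 loci red with exact 95% intervals of counting error (open where not called). Mir30e, Mir30a and Mir30d lie at -0.14, -0.15 and -0.05, and the members with fewer counts have wider intervals.

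The locus most like each member over the 2 libraries was found as the nearest of 395 other detected loci by Euclidean distance in log2(CPM + 1). Mir130a lay nearest to Mir30e, at a distance of 0.22, with 25554 CPM in replicate 2 and 24689 CPM in replicate 1. Mir137 lay nearest to Mir30a (0.21), Mir106b to Mir30d (0.04) and Mir668 to Mir30b (0.09). Mir679 lay nearest to Mir30c-1 (0.10) and Mir758 to Mir30c-2 (0.05). With 2 libraries of 1 group this likeness is mainly one of level.

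The Mir26, Mir181 and Mir29 families, which likewise have loci in several places of the genome, were set beside Mir30. The Mir181 family, with 6 loci, held 2.46% of the counts in replicate 2 and 2.49% in replicate 1. The Mir26 family, with 3 loci, held 1.08% and 1.10%, and the Mir29 family, with 4 loci, held 0.0373% and 0.0309%, replicate 2 first. The Mir30 family had the largest summed level of the 4 in each library. Its leading locus made up 58.1% of its mean level, against 50.9% for Mir181c in the Mir181 family, 99.7% for Mir26b and 52.8% for Mir29c. These sums and shares leave out multimapping reads, and each of the 4 families has loci with an identical mature sequence elsewhere. How many such reads each family lost was not tested, so the ranking holds for assigned reads only.

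In each of these families the loci that hold a mature sequence identical to one at another locus were below the others. In the Mir30 family these were Mir30c-1 and Mir30c-2, with mean levels of 59.99 and 44.03 CPM, against 22831 CPM for Mir30e and 9556 CPM for Mir30a, while sequences of Mir30b and Mir30d were not compared. In the Mir26 family Mir26a-1 and Mir26a-2 had 8.14 and 26.8 CPM, against 10866 CPM for Mir26b. In the Mir29 family Mir29b-1 and Mir29b-2 had 2.18 and 1.77 CPM, against 157 and 180 CPM for Mir29a and Mir29c. Mir29b-2 did not count as detected, with 19 counts in replicate 2 and 4 in replicate 1. The Mir181 family was less divided, with 12.5 to 3843 CPM at 4 loci with an identical product and 6721 and 12600 CPM for Mir181d and Mir181c. The part of unassigned multimapping reads in these gaps was not tested. The pattern of these 4 families did not hold for the medians of all 362 detected loci with a sequence. Those were 174 CPM for 48 loci with an identical product and 139 CPM for the other 314.

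**Figure D4:**
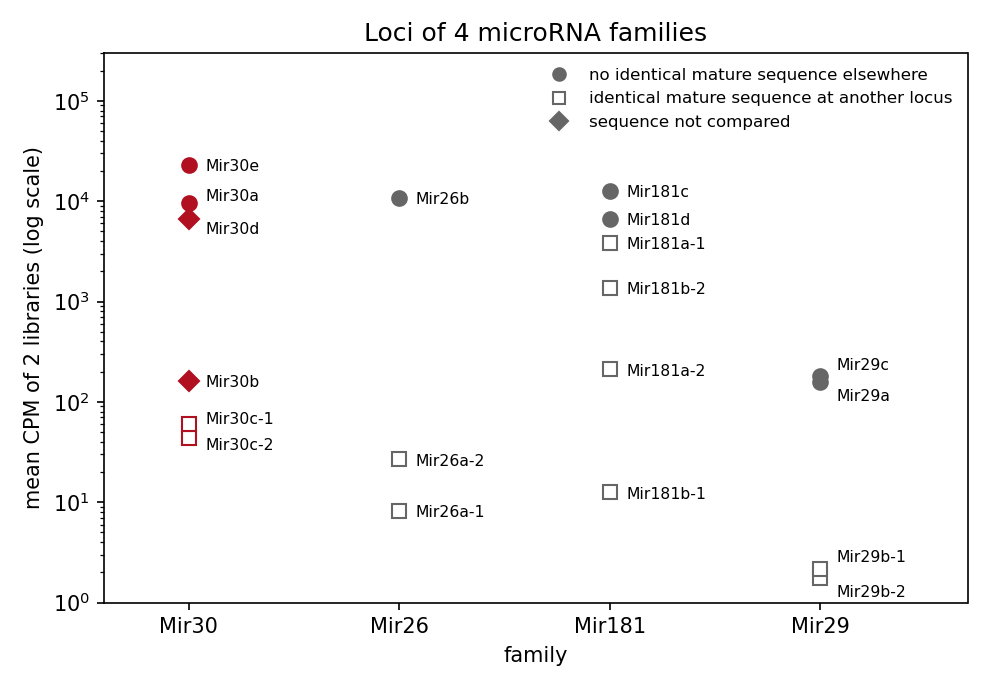
Mean CPM of both libraries on a log axis for each locus of the Mir30 family (red) and of the Mir26, Mir181 and Mir29 families (grey), with open squares for loci that hold a mature sequence identical to one at another locus and diamonds where no sequence was compared. The open squares lie below the filled circles of the same family, from 44.03 to 59.99 CPM in Mir30.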

How the data were processed

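Small RNA libraries of 2 replicate hindbrain samples were analysed. The authors deposited counts of raw reads for each microRNA locus, without normalization, for both strands and for each strand. The file lists deposited with them name mm10 and annotation release M4, but no aligner or counter (not given in the sources used here). The gene strand was read from the column with the larger total, which held 97.8% of assigned counts in replicate 2 against 98.0% in replicate 1. Library sizes and tests exclude the 4 rows of unassigned reads. Unmapped reads were 15.9% and 13.8% of all reads, multimapping reads 34.3% and 33.9%, and reads outside the loci, with both strands counted, 2.26% and 1.99%, replicate 2 first.

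Symbols were matched on the stable identifier in GENCODE M21 for 1894 of 1973 loci. Detection required 10 counts per library. TMM in edgeR scaled the counts (factors 1.01 in replicate 2 and 0.985 in replicate 1), and log2 ratios added 0.5 to each count. Loci of 10 or more summed counts were tested by an exact binomial test at an adjusted p of 0.05. Comparing 1 library with 1 leaves the quasi-likelihood test no residual degrees of freedom. The binomial test was checked on simulated counts that held counting error only. Known changes of at least 1 log2 unit were recovered, which are larger than the ratios of the Mir30 loci. This check therefore does not show how the test behaves with added spread between libraries. The test with a common dispersion called no changed locus in the simulated counts. The named loci were the members, Mir384, the comparison families and the locus nearest to each member. The members and lists were chosen with earlier results of these data known. Alternatives covered scaling, filter, pseudocount, strand, denominator, test and leaving out each replicate. Statistics used edgeR 4.0.16 and DESeq2 1.42.0 under R 4.3.3, and scipy 1.17.1, pandas 2.3.3 and numpy 2.4.6 under Python 3.11.15, with figures by matplotlib 3.10.9.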

Additional observations from a re-analysis of the deposited data

How the results depend on the processing

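With edgeR's common dispersion the log2 ratios of Mir30e (-0.14), Mir30a (-0.15) and Mir30d (-0.0458) were no longer past the threshold (adjusted p = 1.00 for each, edgeR exact test), 0 Mir30 loci were called, and over all loci 4 were called higher and 3 lower, against 87 and 75 by counting error alone. With library totals, which shift all ratios by 0.04, Mir30d had -0.0032 and was not called. Mir30c-1 passed with DESeq2 size factors (-0.26), with upper quartile scaling (-0.26) and over loci of at least 100 summed counts (-0.24). Library totals gave 114 loci higher and 59 lower, a different split from 87 and 75. Relative to all reads of the library, unassigned ones included, the family had 18830 reads per 1000000 instead of 39268. With counts of both strands every member was lower in mean CPM. Mir30d had 6477 CPM instead of 6615.6, Mir30e 22352.5 instead of 22831.1 and Mir30a 9355.5 instead of 9555.7. No ratio of a Mir30 locus changed sign under any of these settings. Leaving out a replicate gives the value of the other library, so the family was between 38170 and 40366 CPM, which is no check of stability, and a ratio then has no value. No paired analysis was possible because the series holds 1 group. Depth limits the ratios of Mir30c-1, Mir30c-2 and Mir30b, which rest on 250 to 1131 counts.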

Other observations

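Over all 362 detected loci with a mature sequence in the RefSeq table, 48 held a product identical to one at another locus of that table, as the Mir30c loci do. Their median level was 174 CPM, against 139 CPM for the 314 loci with none identical. Detection required 10 counts in each library, so copied loci with fewer counts are not among the 48, and the medians describe only the loci that passed. The highest of the 48 was Mir181a-1 with 3843 CPM, while 46 of the 314 others lay above that level, Mir30e and Mir30a among them. These are values of loci, which are not independent replicates, the RefSeq table is not complete, and no test was made.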
